A study of Homo sapiens with 6 samples.

Results

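Peaks near chromosome ends were taken from 4 lists of chromatin peaks, 1 for each of the proteins METTL3 and PRMT5 in the prostate cancer cell lines LNCaP and PC3. A peak was counted as terminal when its summit, the base of highest signal, lay within 1 Mb of either end of chromosomes 1 to 22 or X in the hg38 assembly. This rule took 507 of 10235 entries. They were 27 of 168 in the LNCaP METTL3 list, 159 of 962 in the LNCaP PRMT5 list, 118 of 7450 in the PC3 METTL3 list and 203 of 1655 in the PC3 PRMT5 list.

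Both are established human lines, LNCaP responsive to androgen and PC3 independent of it, grown without any stated treatment. Each line gave 1 library with a METTL3 antibody, 1 with a PRMT5 antibody and 1 control, which is titled IgG and whose antibody field names a secondary antibody. The libraries used 100000 cells and 16 PCR cycles in an assay in which a protein G-Tn5 transposase, held by the antibody, cuts and tags the DNA around it. In each line, 1 control served for both antibodies. With 1 library per group nothing could be tested between lines or antibodies. Intervals below are exact 95% intervals that cover counting error only. They count each peak as independent, though many peaks lie in clusters, so they are too narrow. Whether intervals overlap therefore describes the counts and does not settle a difference. Read depth is unknown, so numbers of peaks are compared within a list and not between lists, and the same holds for the folds of the authors' caller.

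Human chromosomes end in telomeres, arrays of a short repeat bound by a protein complex that shields the end. Inside the telomere lies the subtelomere, a patchwork of blocks copied between chromosomes, with pseudogene families such as DDX11L and WASH, followed by gene-dense sequence rich in G and C on many arms. PRMT5 dimethylates arginines symmetrically, on histone tails and on proteins of the splicing machinery, and METTL3 catalyses the N6-methylation of adenosine in RNA. In hg38 the outermost bases of most arms are placeholders without sequence, so that no read can be placed there.

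The promoters of 4 genes under terminal PRMT5 peaks are printed because they carry the gene-end peaks described further on: GTPBP6, with the highest fold of the LNCaP PRMT5 list, LINC01970, a noncoding gene with a peak in both lines, PTBP1, a splicing regulator whose window is touched by a LNCaP peak and has a PC3 peak just before it, and NARF, with the highest fold among the PC3 peaks that reach a promoter but have no LNCaP counterpart. Each is 300 bases of RefSeq sequence of GRCh38.p14, written 5′ to 3′ on the strand of the gene, from 250 bases before the start to 50 after it. Capitals mark 3 motifs found on either strand: CACGTG, an E-box, GGGCGG, the GC box, which reads CCGCCC on the other strand, and CCGGAA, an ETS core, which reads TTCCGG. None of these motifs overlapped another in the 4 sequences.
GTPBP6 promoter, chrX:318747-319046, minus strand: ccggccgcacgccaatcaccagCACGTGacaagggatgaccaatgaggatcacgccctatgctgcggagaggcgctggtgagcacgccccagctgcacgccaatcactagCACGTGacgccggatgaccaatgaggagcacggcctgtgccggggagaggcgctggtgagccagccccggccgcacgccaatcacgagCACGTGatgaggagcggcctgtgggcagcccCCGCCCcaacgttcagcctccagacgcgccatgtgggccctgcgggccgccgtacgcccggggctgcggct
LINC01970 promoter, chr17:82292765-82293064, minus strand: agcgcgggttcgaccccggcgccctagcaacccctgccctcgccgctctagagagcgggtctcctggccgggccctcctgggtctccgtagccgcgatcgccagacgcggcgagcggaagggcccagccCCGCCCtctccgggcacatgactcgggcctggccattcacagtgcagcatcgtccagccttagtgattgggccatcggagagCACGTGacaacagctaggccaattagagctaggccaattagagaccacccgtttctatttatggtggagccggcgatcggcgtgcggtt
PTBP1 promoter, chr19:797202-797501, plus strand: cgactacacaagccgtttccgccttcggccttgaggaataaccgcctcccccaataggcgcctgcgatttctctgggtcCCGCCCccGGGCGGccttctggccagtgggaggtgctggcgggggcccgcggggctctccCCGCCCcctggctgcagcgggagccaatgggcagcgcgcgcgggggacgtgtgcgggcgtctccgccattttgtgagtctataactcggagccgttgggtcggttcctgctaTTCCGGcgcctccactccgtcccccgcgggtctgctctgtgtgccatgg
NARF promoter, chr17:82458414-82458713, plus strand: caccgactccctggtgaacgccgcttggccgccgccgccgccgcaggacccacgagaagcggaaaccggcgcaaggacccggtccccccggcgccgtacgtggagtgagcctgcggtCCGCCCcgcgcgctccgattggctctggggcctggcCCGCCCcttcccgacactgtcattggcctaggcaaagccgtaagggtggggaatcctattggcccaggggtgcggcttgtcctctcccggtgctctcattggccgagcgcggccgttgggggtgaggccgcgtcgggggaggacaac

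GTPBP6, a putative GTP-binding protein of the pseudoautosomal region, carried the E-box 3 times and LINC01970 carried it once. In PTBP1 and NARF it did not occur, and the GC box occurred 3 times in PTBP1 and 2 times in NARF. Over the 18 RefSeq promoter windows of 17 genes that a terminal PRMT5 peak touched, the E-box stood in 3, or 16.7%, against 7.27% of all 34961 windows and 9.23% of the 1062 windows near the ends. The third of these is the LINC00685 window, which overlaps that of GTPBP6, so it is not a separate stretch of sequence. GC boxes stood in 15 of the 18, or 83.3%, against 45.0% of all windows and 57.5% of those near the ends. The median G and C content was 68.0% in the 18 windows, against 58.7% in all windows and 66.3% in those near the ends. The ETS core stood in 1 of the 18, or 5.56%, against 17.3% of all windows and 20.6% of those near the ends. The telomere repeat unit TTAGGG, searched on both strands, was in none of the 18, against 9.05% of all windows and 6.69% of those near the ends. These counts describe letters in windows, several of which overlap, and no genome sequence was used here for the peaks outside promoters.

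In all lists but PC3 METTL3 the interval of the share of peaks near the ends lay above the share of the length that those stretches make up. Of the 46 ends, 41 have an annotated gene in their last 1 Mb, and these 41 Mb make up 1.44% of the length counted and hold 3.49% of the protein-coding genes, 691 of 19817. Terminal peaks made up 16.1% of the LNCaP METTL3 list (95% interval 10.9 to 22.5), 16.5% of the LNCaP PRMT5 list (14.2 to 19), 1.58% of the PC3 METTL3 list (1.31 to 1.89) and 12.3% of the PC3 PRMT5 list (10.7 to 13.9). Per Mb, the LNCaP METTL3 list had 0.659 peaks near the ends and 0.0502 elsewhere, a ratio of 13.1 (8.36 to 19.9). The LNCaP PRMT5 list had 3.88 near the ends and 0.286 elsewhere, a ratio of 13.6 (11.4 to 16.1). In the PC3 METTL3 list the densities were 2.88 near the ends and 2.61 elsewhere, a ratio of 1.1 (0.912 to 1.32), and that interval includes 1. In the PC3 PRMT5 list they were 4.95 near the ends and 0.517 elsewhere, a ratio of 9.58 (8.23 to 11.1). Leaving out the 7p, 17q, 20q and 21q ends gave 6.22 for the PC3 PRMT5 list. These ends were chosen after the data were seen because they hold the most PC3 PRMT5 peaks. This was the one ratio that an alternative moved by more than 1.5 times, and 6.22 lies below the interval given, which takes clustered peaks as independent.

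Per Mb of full length, placeholder bases included, the density was highest in the outermost stretch in every list but PC3 METTL3. How many placeholder bases each end has was not measured, so the density over sequenced bases in the outer bins is not known. Within 20 kb of the ends the ratio to the rest of the same list was 111 in the LNCaP PRMT5 list and 59.0 in the PC3 PRMT5 list. It was 72.9 in the LNCaP METTL3 list, which rests on 3 peaks, and 0.935 in the PC3 METTL3 list, which rests on 2. From 20 to 100 kb there were 11 LNCaP PRMT5 and 5 PC3 PRMT5 peaks, or 3.35 and 1.52 per Mb, and from 500 to 1000 kb there were 72 and 114, or 3.51 and 5.56 per Mb. Outside the 1 Mb limit, between 1 and 2 Mb, the ratios of these lists were 5.29, 7.13, 6.81 and 1.04 in the same order, and between 5 and 10 Mb they were 1.59, 1.63, 1.75 and 1.02. The profile of both PRMT5 lists thus has a narrow maximum in the last 20 kb and a broad flank that runs beyond 1 Mb. A few ends held much of that flank. Of the 114 PC3 PRMT5 peaks from 500 to 1000 kb, 37 lay on 7p, 16 on 17q, 13 on 21q and 7 on 20q. Of the 72 LNCaP PRMT5 peaks there, 19 lay on 7p. On the same full lengths the PC3 METTL3 ratio stayed between 0.748 and 1.35. At the limit itself, the LNCaP METTL3 peak just inside lay 928.4 kb from the 13q end with a fold of 7.06 and the one just outside 1025 kb from the 16p end with a fold of 2.78. For LNCaP PRMT5 they lay at 997.1 kb on 17q with a fold of 7.11 and at 1025 kb on 16p with a fold of 2.61. For PC3 METTL3 they lay at 994.1 kb on 20p with a fold of 5.06 and at 1005 kb on 7q with a fold of 2.22, and for PC3 PRMT5 at 985.8 kb on 7q with a fold of 9.05 and at 1011 kb on 7q with a fold of 3.18.

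**Figure D1:**
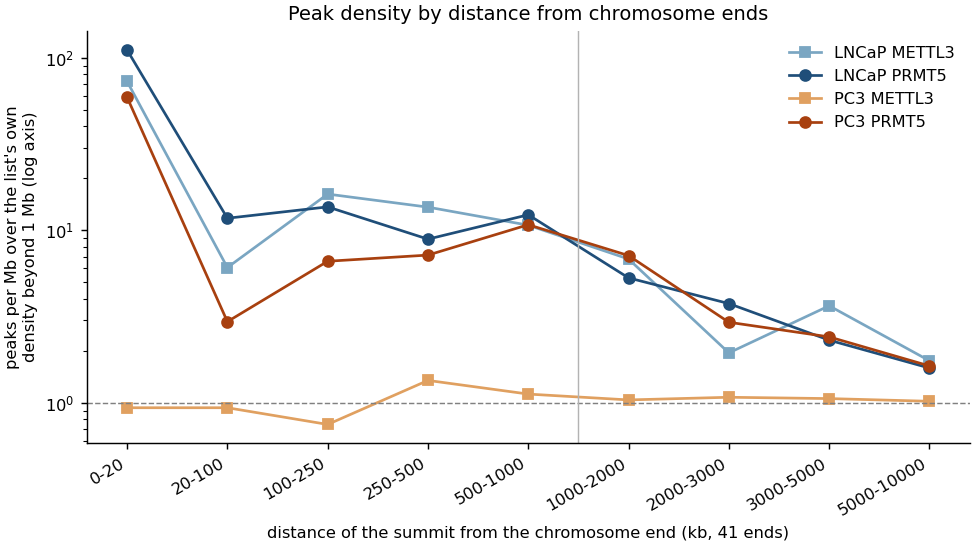
Peaks per Mb at each distance from the chromosome end (kb), divided by the density of the same list beyond 1 Mb, on a log axis, with the 1 Mb limit as a vertical line and equal density as a dashed line. Both PRMT5 lists and the LNCaP METTL3 list are highest in the outermost 20 kb and still above 1 at 5 to 10 Mb, and the PC3 METTL3 list stays between 0.748 and 1.35. Placeholder bases are counted in the lengths.

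Peaks were spread over 40 of the 41 ends, and the exception was 14q. The LNCaP PRMT5 list had a peak at 37 ends with a median of 3 per end, and the PC3 PRMT5 list at 40 ends with a median of 2. PC3 METTL3 peaks lay at 35 ends with a median of 2, and LNCaP METTL3 peaks at 18. A few ends held much of each list. The 4 fullest ends held 40.7% of the terminal peaks of LNCaP METTL3, 30.8% of LNCaP PRMT5, 27.1% of PC3 METTL3 and 41.4% of PC3 PRMT5. The 7p end was the fullest of both PRMT5 lists, with 22 LNCaP peaks, 13.8% of the terminal ones, and 39 PC3 peaks, 19.2%. Next in the LNCaP PRMT5 list came 1p with 10, Xp with 9, 11p with 8 and 17q and 18p with 7 each. Next in the PC3 PRMT5 list came 17q with 18, 21q with 15, 20q with 12, 11p with 11 and Xp with 8. The PC3 METTL3 list was led by other ends, with 11 peaks on 1q and 7 each on 19q, 2p, 3q, 4q and 5p. The LNCaP METTL3 list was led by 1p with 4 and 7q with 3, then 10p, 17q, 18p and 3q with 2 each. On chromosome Y, whose first 1 Mb repeats the pseudoautosomal sequence of X, none of the 4 lists had an entry in that stretch. Reads of this sequence cannot be told apart between X and Y, and how the authors placed them is not known here. The empty stretch therefore does not show a lack of signal on Y, and the Xp peaks may hold reads from Y.

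**Figure D2:**
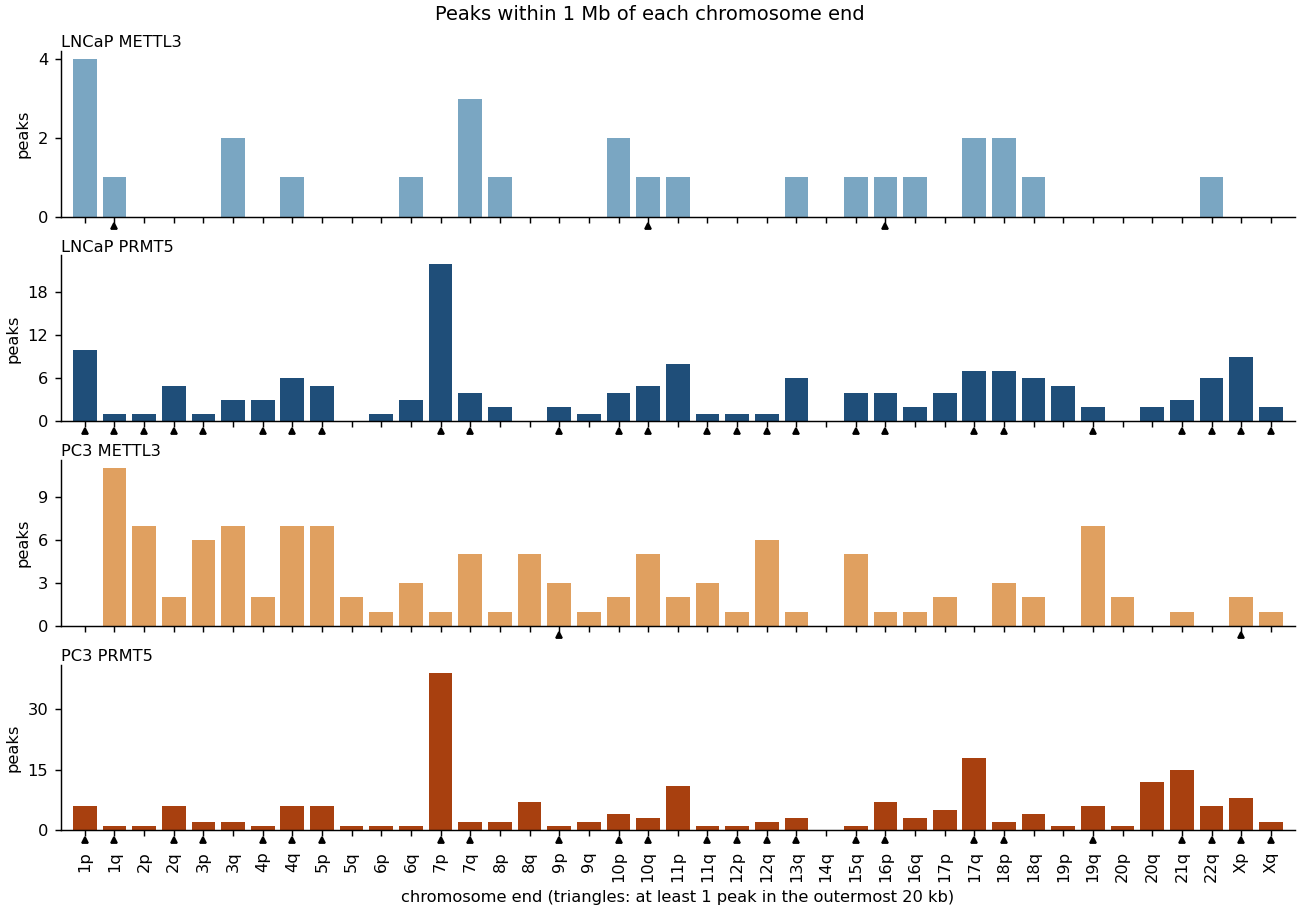
Number of peaks within 1 Mb of each of the 41 ends with an annotated gene there, 1 panel per list with its own axis, with triangles under the ends that have a peak in the outermost 20 kb. The 7p bar is the tallest in both PRMT5 panels, at 22 in LNCaP and 39 in PC3, and 14q is empty throughout.

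The outermost peaks of the PRMT5 lists lay at the same ends and almost the same bases in both lines. Within 20 kb of an end the LNCaP PRMT5 list had 26 peaks at 26 ends and the PC3 PRMT5 list had 25 peaks at 25 ends. All 25 PC3 ends were among the LNCaP ones, every one of these 25 pairs of entries overlapped, and the remaining LNCaP peak was at 2p with a fold of 8.30. The summits of a pair were a median of 11 bp and at most 235 bp apart. In 24 of the 26 LNCaP and 23 of the 25 PC3 peaks the summit lay 10.0 to 10.6 kb from the end, and the exceptions were 5p at 11.6 kb and 16p at 19.8 kb in both lines. None lay within 3 kb of an end of a protein-coding gene. Fold was 6.18 to 30.8 in LNCaP, with a median of 9.56, and 4.64 to 32.9 in PC3, with a median of 12.7.

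The order of the ends by fold was not the same in the lines. The highest LNCaP folds were 30.8 at 4q, 16.9 at Xp, 16.8 at 4p, 15.7 at 11q and 14.4 at 16p. At these ends PC3 had 16.9 at 4q, 32.9 at Xp, 9.83 at 4p, 11.2 at 11q and 4.64 at 16p, the lowest of the PC3 outermost folds. The highest PC3 folds after Xp were 28.8 at 15q, 28.6 at 9p, 27.3 at 12p, 23.7 at 1q and 22.4 at 3p. The LNCaP folds there were 12.2 at 15q, 8.56 at 9p, 9.50 at 12p, 9.49 at 1q and 9.62 at 3p. The peak nearest to an end was at Xp in the LNCaP list, 10.0 kb away, and at 4q in the PC3 list, also 10.0 kb away. Several of these peaks lie beside pseudogenes of the DDX11L family, namely DDX11L1 on 1p, DDX11L5 on 9p, DDX11L8 on 12p, DDX11L9 on 15q and DDX11L16 on Xq. These copies are nearly identical, how the authors placed reads that fit several copies is not known here, and which end a given read came from cannot be told apart.

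**Figure D3:**
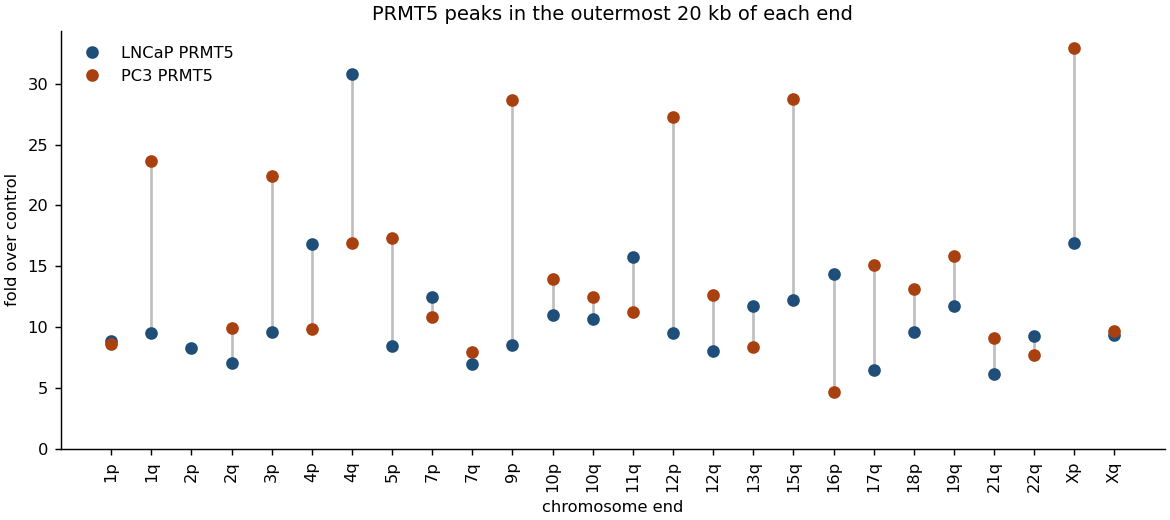
Fold over the control of the PRMT5 peak in the outermost 20 kb of each end, for LNCaP and PC3, joined by a grey line at ends with a peak in both. LNCaP folds run from 6.18 to 30.8 and PC3 folds from 4.64 to 32.9, and 2p has a LNCaP point alone.

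No PRMT5 peak lay in the last 20 kb of the other 15 ends in either line. These were 3q, 5q, 6p, 6q, 8p, 8q, 9q, 11p, 14q, 16q, 17p, 18q, 19p, 20p and 20q. At 14 of them the nearest PRMT5 summit was between 110 kb (18q) and 681 kb (19p) from the end, and 14q had none. The outermost annotated gene of any type lay 60.0 to 164 kb from the end at these 15 ends, with a median of 75.7 kb. At the 26 ends with a peak it lay 10.4 to 276 kb away, with a median of 17.2 kb, and in 24 of the 26 it was closer than 60 kb. Missing sequence at these ends was not measured, and its part was not tested. METTL3 peaks in the last 20 kb were few. The LNCaP list had 3, with folds of 1.93 at 10q, 1.46 at 1q and 2.89 at 16p. The PC3 list had 2, with folds of 5.84 at 9p and 4.40 at Xp. Each of these 5 overlapped a PRMT5 peak of its own line, called against the same control.

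Within each list the terminal peaks had much the same median fold as the others. In the PRMT5 lists a larger share of them had a high fold, with intervals that overlapped in LNCaP and did not in PC3. Median folds near the ends and elsewhere were 7.03 and 6.44 in the LNCaP PRMT5 list and 6.18 and 5.89 in the PC3 PRMT5 list. For METTL3 they were 5.95 and 6.41 in LNCaP and 5.01 and 5.12 in PC3. A fold of at least 10 was found in 36 of the 159 terminal LNCaP PRMT5 peaks, or 22.6% (16.4 to 29.9), against 15.1% (12.7 to 17.7) of the rest, with 16.3% over the whole list. In PC3 PRMT5 it was found in 36 of 203, or 17.7% (12.7 to 23.7), against 5.65% (4.52 to 6.96) of the rest, with 7.13% over the whole list. Without the outermost 20 kb the shares were 18.8% in LNCaP PRMT5 and 11.2% in PC3 PRMT5. No terminal METTL3 peak reached a fold of 10, where the whole lists had 4.17% in LNCaP and 0.174% in PC3. The median widths near the ends and elsewhere were 229 and 180 bp in the LNCaP PRMT5 list and 266 and 228 bp in the PC3 PRMT5 list. For METTL3 they were 234 and 273 bp in LNCaP and 292 and 292 bp in PC3. The PC3 METTL3 median is also the smallest width of that list, so its equal medians say little about width.

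The 6 highest terminal folds of the LNCaP PRMT5 list were 61.5 beside GTPBP6 on Xp, 45.5 between SUN1 and GET4 on 7p, 30.8 at the 4q end, 26.6 beside ADNP2 on 18q, 18.3 inside DNAAF5 on 7p and 16.9 at the Xp end. ADNP2 encodes a homeodomain zinc-finger protein and DNAAF5 a factor for the assembly of ciliary dyneins. Of the 6 highest of the PC3 PRMT5 list, 5 were outermost peaks, those at Xp, 15q, 9p, 12p and 1q. The highest, with a fold of 47.1, lay 113 kb from the 17p end and 24.3 kb from SCGB1C2, a secretoglobin gene. The highest LNCaP METTL3 folds were 9.28 on 11p, 8.77 inside ZMYND11 on 10p, a reader of methylated histone H3, 7.75 inside PCSK6 on 15q and at the same value on 8p, 7.62 inside PTPRN2 on 7q and 7.18 near DIP2C on 10p. The highest PC3 METTL3 folds were 8.82 inside OR2L13 and 8.04 near OR2M7 on 1q, 7.51 and 7.39 on 3p at 217 and 180 kb from CNTN6, 7.33 inside PTPRN2, and 7.13 at 25.1 kb from the 15q end, a value shared by peaks at 235.0 and 200.0 kb from the 4q end.

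**Figure D4:**
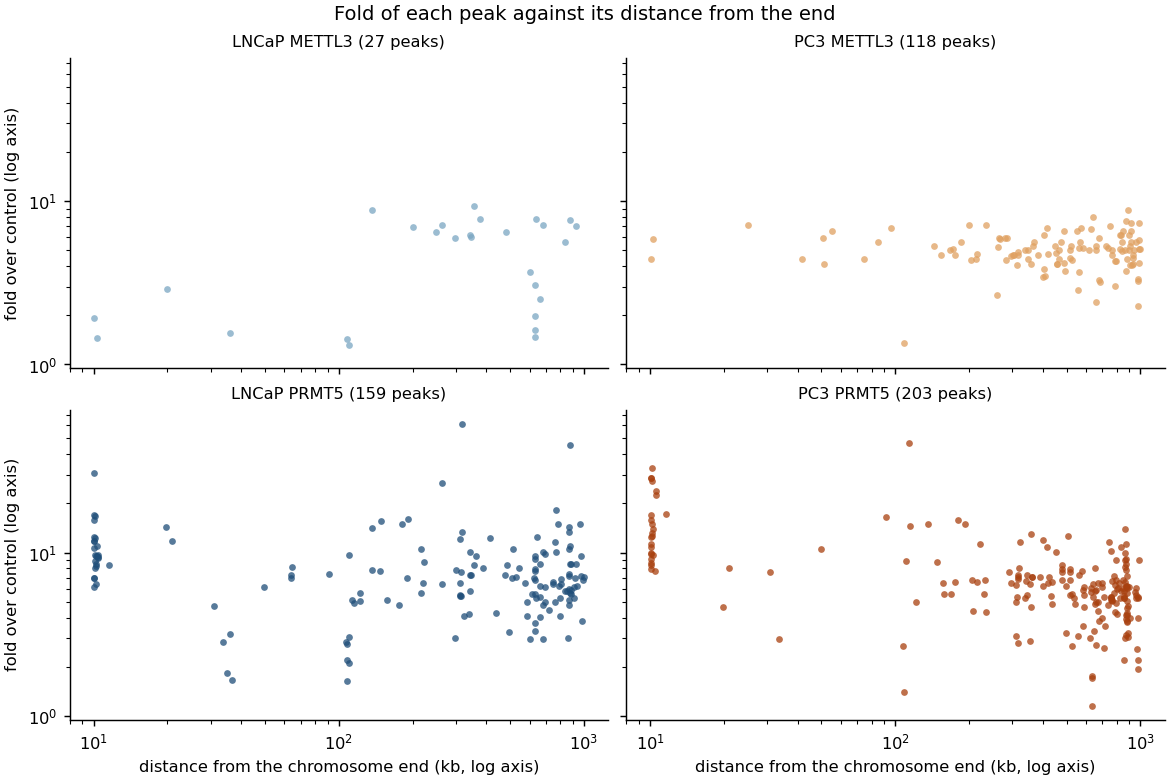
Fold over the control of each terminal peak against the distance of its summit from the chromosome end in kb, both on log axes, 1 panel per list. The column of points near 10 kb in both PRMT5 panels is the set of outermost peaks, and the METTL3 panels have no point above a fold of 9.28.

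A smaller share of the terminal PRMT5 peaks than of the other PRMT5 peaks lay at protein-coding gene ends, with intervals that overlapped in PC3 and did not in LNCaP, and with genes of all types it was not smaller in either line. A summit within 3 kb of either end of such a gene was found for 33 LNCaP PRMT5 peaks, 20.8% (14.7 to 27.9), against 37.1% (33.8 to 40.6) of the rest and 34.4% of the whole list. In PC3 PRMT5 it was found for 44, or 21.7% (16.2 to 28.0), against 29.5% (27.1 to 31.9) of the rest and 28.5% of the whole list. None of the outermost PRMT5 peaks lay at such a gene end. Without the outermost 20 kb the shares were 24.8% (17.7 to 33.0) in LNCaP PRMT5 and 24.7% (18.6 to 31.7) in PC3 PRMT5. That PC3 interval includes the 29.5% of the rest. In PC3 METTL3 the terminal share was the higher one, with 16, or 13.6% (7.95 to 21.1), against 5.71% (5.19 to 6.27) of the rest and 5.84% of the whole list. Among PC3 METTL3 peaks with a −log10 q of at least 3 it was 8.97% (3.68 to 17.6), an interval that includes the 5.60% of the rest at that setting. LNCaP METTL3 had 1, or 3.70%, against 9.93% of the rest and 8.93% of the whole list. The RefSeq table used for this gives no strand, so both ends of a gene were counted alike. These shares depend on the distance and on the genes. Within 1 kb they were 8.18% near the ends and 30% in the rest for LNCaP PRMT5, 8.87% and 17.1% for PC3 PRMT5, and 4.24% (1.39 to 9.61) and 2.02% for PC3 METTL3. With genes of all types they were 52.8% (44.8 to 60.8) near the ends and 50.4% in the rest for LNCaP PRMT5, 45.3% (38.3 to 52.4) and 39.7% for PC3 PRMT5, and 29.7% (21.6 to 38.8) and 15.4% for PC3 METTL3.

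Counted by gene, 26 of the 691 terminal protein-coding genes, or 3.76% (2.47 to 5.46), had a LNCaP PRMT5 peak at an end, against 1.91% of all protein-coding genes. For PC3 PRMT5 it was 37, or 5.35% (3.80 to 7.31), against 2.42%. For PC3 METTL3 it was 16, or 2.32% (1.33 to 3.73), against 2.49%, and for LNCaP METTL3 it was LMLN alone, or 0.145%, against 0.0656%. The intervals of both PRMT5 shares lay above the share over all genes, and that of PC3 METTL3 included it. Neighbouring genes can share a peak, as SUN1 and GET4 did in LNCaP PRMT5, and DRD4 and DEAF1. The intervals count such genes as independent and are therefore too narrow, so they do not settle whether the PRMT5 shares are higher.

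Both PRMT5 lists marked 12 of these genes, namely FAM240C, SUN1, GET4, SCGB1C1, SCGB1C2, LIAT1, PTBP1, FNDC11, HELZ2, COL6A2, FTCD and GTPBP6. These are 1.74% (0.900 to 3.01) of the 691, against 0.944% of all protein-coding genes, and the interval includes that share. PTBP1, which represses exons in pre-mRNA splicing, had peaks with folds of 5.30 in LNCaP and 4.91 in PC3. LIAT1, a ligand of the arginyltransferase ATE1, had 12.3 in LNCaP and 10.9 in PC3. FNDC11 and HELZ2, a nuclear receptor coactivator, shared 1 peak with folds of 8.47 in LNCaP and 6.05 in PC3. COL6A2, a chain of collagen VI, and FTCD, an enzyme of histidine breakdown, shared another with 6.55 in LNCaP and 7.75 in PC3. SCGB1C1 on 11p had 16.1 in LNCaP and 14.9 in PC3, and SCGB1C2 on 17p had 14.1 and 14.9 in the same order, but these genes are near-identical copies and reads cannot be told apart between them.

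Genes marked in LNCaP PRMT5 alone included ADNP2 at 26.6, BDH1, a ketone body dehydrogenase, at 14.9, DEAF1, a transcription factor, and DRD4, a dopamine receptor, sharing a peak of 12.4, PLXNB2, a plexin receptor, and DENND6B sharing 10.6, and FSTL3, an activin-binding protein, at 10.1. Those marked in PC3 PRMT5 alone included NARF, which binds prelamin A, at 8.97, and HBM, a globin gene, at 5.60. The summit of the HBM peak lay 1.74 kb from HBM and nearer, at 0.141 kb, to HBAP1. A missing entry in a list says that no peak passed the authors' call there, and the difference between lines was not tested.

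Gene lists of families known from chromosome ends were counted too, together with 1 of lysosomal and mTORC1 genes. Of the 4 pseudoautosomal genes PLCXD1, GTPBP6, PPP2R3B and SHOX, 2 had LNCaP PRMT5 peaks, PLCXD1 with a fold of 7.85 and GTPBP6 with 61.5. In PC3 PRMT5 there was 1, GTPBP6 with a fold of 8.06. Over the terminal protein-coding genes the shares were 3.76% for LNCaP PRMT5 and 5.35% for PC3 PRMT5, and over all 1.91% and 2.42%. These 4 genes were chosen with earlier results of these data known and are too few to weigh against such shares. Of 12 genes in and around the alpha-globin cluster on 16p, HBM had a peak, in PC3 PRMT5, or 8.33%, against 5.35% of the terminal protein-coding genes and 2.42% of all. That is the peak whose summit lay nearer to HBAP1. Among 49 zinc-finger transcription factor genes, ZNF551, ZNF776 and ZNF251 had PC3 METTL3 peaks with folds of 4.08, 5.01 and 4.76, and ZNF544 and ZNF8 had PC3 PRMT5 peaks, the higher of them, 6.73, lying inside ZNF544 near the start of ZNF8. That is 6.12% of the 49 for PC3 METTL3, against 2.32% of the terminal protein-coding genes and 2.49% of all, and 4.08% for PC3 PRMT5, against 5.35% and 2.42%. Of 109 genes and pseudogenes of duplicated subtelomeric families, 12 had a LNCaP PRMT5 peak within 3 kb of an end and 14 a PC3 PRMT5 peak, with 1 for each METTL3 list, WASH4P in LNCaP with a fold of 2.89 and DDX11L5 in PC3 with 5.84. The LNCaP PRMT5 count is 11% of the 109, against 4.59% of the 1743 terminal genes of all types and 1.13% of all 58415, and the PC3 PRMT5 count is 12.8%, against 6.25% and 1.4%. The single genes are 0.917% of the 109, against 0.975% and 0.0993% for LNCaP METTL3 and 2.41% and 2.37% for PC3 METTL3. This list, like the others here, was chosen with earlier results of these data known. Several of its members are nearly identical copies whose reads cannot be told apart, and FAM41C and TUBB8P11 share a PC3 PRMT5 peak. The shares therefore do not settle whether these families carry more PRMT5 peaks. The DDX11L17 peak on 1p was among the higher ones, with 15.1 in LNCaP PRMT5 and 15.9 in PC3 PRMT5, at 181 kb from the end. Of 13 lysosomal and mTORC1 genes, 7 lay near an end, and none of these 7 had a peak at a gene end in any list. The shares over all terminal protein-coding genes were 3.76% for LNCaP PRMT5, 5.35% for PC3 PRMT5, 2.32% for PC3 METTL3 and 0.145% for LNCaP METTL3. At such shares 7 genes are too few for their lack of peaks to say anything about them.

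The 7p cluster sat over 2 neighbouring genes (chr7:815557-896436). SUN1 is an inner nuclear membrane protein of the LINC complex, which joins the nuclear envelope to the cytoskeleton and tethers telomeres in meiosis, and GET4 takes part in the insertion of tail-anchored proteins into membranes. Of the 22 LNCaP PRMT5 peaks on 7p, 15 had their summit between the outer end of SUN1 and the inner end of GET4, with 10 in SUN1, 4 in GET4 and 1 in the gap between them. Of the 39 PC3 PRMT5 peaks, 34 did, with 20 in SUN1, 13 in GET4 and 1 in the gap. The gap peaks had folds of 45.5 in LNCaP and 7.81 in PC3, and in each list the summit was 0.18 kb from GET4. In PC3 the highest of the cluster, 14, lay inside SUN1 at 867 kb from the end, where LNCaP had 10.6. On the 7p end as a whole 13 peaks of each line overlapped one of the other line. No METTL3 peak of either line lay over these genes.

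**Figure D5:**
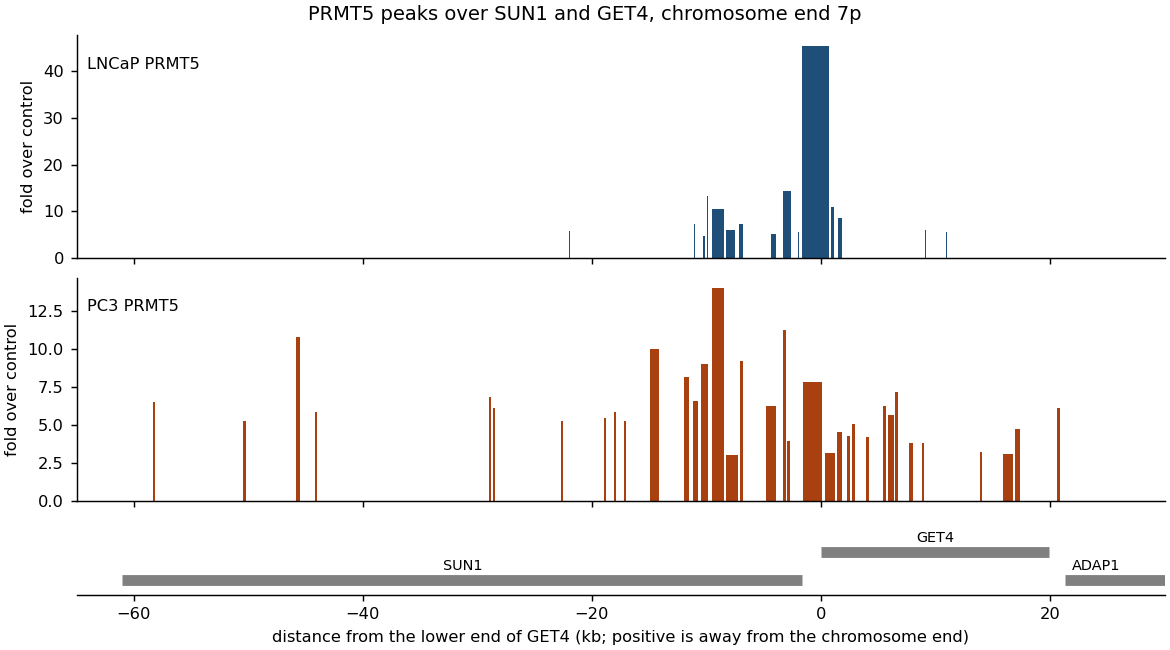
PRMT5 peaks over SUN1 and GET4 on 7p, drawn at their width with their fold over the control as height, LNCaP above PC3, against the distance from the lower end of GET4 in kb. The LNCaP panel is led by the wide peak of fold 45.5 in the gap between the genes, and the 34 PC3 peaks spread over both gene bodies with folds up to 14.

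The other PC3 PRMT5 clusters lay on 17q, 21q and 20q. Counts of both lines are given but not compared, because the lists differ in length and read depth is unknown. On 17q the PC3 PRMT5 list had 18 peaks and LNCaP 7, of which 6 in PC3 and 1 in LNCaP had NARF as the nearest protein-coding gene, and 5 in PC3 and 3 in LNCaP had LINC01970 as the nearest gene of any type. The LINC01970 promoter printed above lay under peaks with folds of 14.9 in LNCaP and 2.58 in PC3. On 21q there were 15 PC3 PRMT5 peaks and 3 in LNCaP, and 5 of those in PC3 lay inside LSS, the lanosterol synthase of cholesterol synthesis, with folds up to 12.7, where LNCaP had 1 with a fold of 6.99. On 20q there were 12 PC3 PRMT5 peaks and 2 in LNCaP, both of which overlapped PC3 peaks, at HELZ2 and at 157 kb from the end. All 8 PC3 PRMT5 peaks on Xp overlapped one of the 9 LNCaP peaks there. Of these, 6 in each line were nearest to GTPBP6, and the peak on the printed promoter had folds of 61.5 in LNCaP and 8.06 in PC3. This sequence is repeated on Y, so whether its reads came from X or Y cannot be told apart.

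In the PC3 METTL3 list, 9 of the 11 peaks on 1q had an olfactory receptor gene as the nearest protein-coding gene, with folds of 4.46 to 8.82, and 4 of the 7 on 19q had a ZNF gene. The 1q end is the fullest of that list, 19q shares its count of 7 with 4 other ends, and both gene groups were picked out after their values were seen. The terminal share of this list is at its average, so the counts describe where its terminal peaks lie. How many of all peaks of the list have such a gene nearest, or how many genes at these ends belong to these groups, was not counted. The counts therefore say nothing about a preference for these genes.

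On 1p, the 4 LNCaP METTL3 peaks all lay 629 to 634 kb from the end, over nuclear copies of mitochondrial genes, with folds of 1.48 to 3.08. The LNCaP PRMT5 list had 7 peaks there with folds of 3.31 to 9.53 and the PC3 PRMT5 list had 3 with folds of 1.16 to 1.75, the lowest being the last of its list by fold. The PC3 METTL3 list had none. Reads of mitochondrial DNA can align to such copies, and their part was not tested. Without peaks at such copies the density ratios stayed inside the intervals given above in all 4 lists.

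In each list a larger share of the terminal peaks than of the others overlapped a peak of another list, though in LNCaP METTL3 the intervals of the shares overlapped. At least 1 bp was shared with a peak of any other list by 19 terminal LNCaP METTL3 peaks, 70.4% (49.8 to 86.2), against 44.7% (36.3 to 53.3) of the rest and 48.8% of the whole list. It was shared by 87 LNCaP PRMT5 peaks, 54.7% (46.6 to 62.6), against 32.6% of the rest and 36.3% of the whole list. For PC3 METTL3 it was 14, or 11.9% (6.64 to 19.1), against 2.05% of the rest and 2.2% of the whole list, and for PC3 PRMT5 it was 86, or 42.4% (35.5 to 49.5), against 23.1% of the rest and 25.4% of the whole list. Between the PRMT5 lists of the lines, which share no control, 79 of the 159 LNCaP peaks, or 49.7% (41.7 to 57.7), overlapped a PC3 peak, against 26.7% of the rest and 30.5% of the whole list. From the other side, 79 of the 203 PC3 peaks, or 38.9% (32.2 to 46), overlapped a LNCaP peak, against 14.5% of the rest and 17.5% of the whole list. Without the outermost 20 kb these PRMT5 shares were 40.6% in LNCaP and 30.3% in PC3. Among peaks with a fold of at least 5, the share of PC3 METTL3 peaks that overlapped any other list was 3.12% (0.381 to 10.8) near the ends and 1.66% in the rest, and that of LNCaP METTL3 was 40.0% (16.3 to 67.7) near the ends and 28.6% in the rest, and both intervals include the value of the rest. Within 0.5 Mb of the ends the share of PC3 PRMT5 was 65.2%.

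Merged, the 507 peaks formed 394 regions, of which 301 came from 1 list, 79 from 2, 12 from 3 and 2 from all 4. The pair of PRMT5 lists alone made up 63 of them. Regions were merged over the terminal peaks only, so these counts have no share over all peaks beside them. The first region in all 4 lists lay on 11p at 357 kb from the end, 12.5 kb from B4GALNT4, a glycosyltransferase gene, with folds of 9.28 in LNCaP METTL3, 8.42 in LNCaP PRMT5, 4.10 in PC3 METTL3 and 12.9 in PC3 PRMT5. The other lay on 6q at 660 kb, 136 kb from DLL1, a Notch ligand, with folds of 2.51 in LNCaP METTL3, 5.38 in LNCaP PRMT5, 2.41 in PC3 METTL3 and 2.73 in PC3 PRMT5.

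Of the 12 regions in 3 lists, 5 joined both PRMT5 lists and PC3 METTL3, and 7 joined both PRMT5 lists and LNCaP METTL3. The first kind included the 9p end, with 8.56 in LNCaP PRMT5, 5.84 in PC3 METTL3 and 28.6 in PC3 PRMT5, and the Xp end, with 16.9 in LNCaP PRMT5, 4.40 in PC3 METTL3 and 32.9 in PC3 PRMT5. It also included an 11p region at 176 kb with folds of 4.78, 4.70 and 6.59 in the same order of lists, a region inside PTPRN2 on 7q with 3.84, 7.33 and 9.05, and one beside FAM240C on 2q with 3.01, 4.60 and 6.52. The second kind was made up of the 1q, 10q and 16p outermost regions, 3 regions in the mitochondrial copies on 1p and 1 at 108 kb on 18p with folds of 1.44 in LNCaP METTL3, 1.65 in LNCaP PRMT5 and 1.41 in PC3 PRMT5. METTL3 peaks of the 2 lines met in 3 terminal regions, those on 11p and 6q and one inside NCAPG2 on 7q with folds of 7.16 in LNCaP and 3.27 in PC3. They held 11.1% of the terminal LNCaP METTL3 peaks, against 8.93% of the whole list, and 2.54% of the terminal PC3 METTL3 peaks, against 0.201%. LNCaP METTL3 and LNCaP PRMT5 met in 17, among them ZMYND11 on 10p with 8.77 and 7.85, and a region inside ADPRHL1 on 13q with 7.06 and 8.50. These were 63.0% of the terminal LNCaP METTL3 peaks, against 41.1% of the whole list, and 10.7% of the LNCaP PRMT5 ones, against 7.17%. The PC3 METTL3 and PC3 PRMT5 lists met in 13, led by the PTPRN2 region. Both lists of these pairs share a control.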

How the data were processed

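Chromatin libraries of 2 lines were analysed as 4 peak lists, 1 library per group. The tools named are bcl2fastq 2.17, Trimmomatic 0.33, the aligner Bowtie 1.1.1, the peak caller MACS2 2.1.0 and also ChIPseeker, with build hg38, per the submitters' processing notes. Settings and the treatment of duplicates and of reads that fit several places were not given in the sources used here. The authors deposited, per peak, a position, a score, a fold, which is a ratio over the control, −log10 p and q values and the summit. Peaks were called per library against the control of the line. The score was 10 times the −log10 q, within 1 unit.

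From these, entries on 23 chromosomes were kept and measured from the summit to the nearer end. Densities used 41 ends with a gene in the last 1 Mb and left out stretches of at least 2 Mb without a gene from the rest of each chromosome. Gene positions came from RefSeq (GRCh38.p14), where 679 of 59094 rows with scaffold coordinates were left out. Overlap meant 1 bp, gene ends 3 kb. Intervals are exact (Clopper-Pearson) 95% binomial intervals, for ratios conditional on the total, and cover counting error only. Members, gene lists and named items were chosen with earlier results of these data known. Named were the 6 highest folds and the outermost peak per list, regions in 3 or 4 lists, up to 6 regions per pair of lists by the smaller fold, of which the leading ones are given, up to 4 genes per gene list and library, and the 6 fullest ends. Depth is unknown. The procedures were tested on simulated data. Python 3.11.15, pandas 2.3.3, numpy 2.4.6, scipy 1.17.1 and matplotlib 3.10.9 were used. Alternatives changed the window, thresholds, ends and gene distance.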

Additional observations from a re-analysis of the deposited data

How the results depend on the processing

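No paired analysis was possible because each group had 1 library and no test was made. Of 112 alternative values for the density ratio, the overlap share and the gene-end share, 86 stayed inside the interval of the value reported and 26 moved outside it, none across 1 for a ratio whose interval lay above 1. The density ratio of LNCaP PRMT5 was 10.1 within 2 Mb. That of PC3 PRMT5 was 7.85 within 0.5 Mb, and 7.94 without 7p and 6.22 without 7p, 17q, 20q and 21q, both chosen after seeing the data, as was leaving out copies of mitochondrial genes. With all 46 ends in the length, the PC3 METTL3 ratio was 0.983. With 50% of both peaks shared, the overlap share was 48.1% for LNCaP METTL3 and 45.9% in the LNCaP PRMT5 list. With a fold of at least 5 it was 46.5% in the LNCaP PRMT5 list, 40.0% in the LNCaP METTL3 list and 3.12% in the PC3 METTL3 list. Without the outermost 20 kb it was 46.6% for LNCaP PRMT5 and 34.3% for PC3 PRMT5. Within 0.5 Mb it was 69.0% for LNCaP PRMT5 and 65.2% for PC3 PRMT5, and within 2 Mb 33.1% for PC3 PRMT5. The gene-end share at 1 kb was 8.18% for PRMT5 in LNCaP and 8.87% in PC3, and 0.0% for METTL3 in LNCaP and 4.24% in PC3. At 5 kb it was 28.9% for PRMT5 in LNCaP and 30.5% in PC3, and 22.9% for METTL3 in PC3. With genes of all types it was 52.8% for PRMT5 in LNCaP and 45.3% in PC3, and 40.7% for METTL3 in LNCaP and 29.7% in PC3, and within 0.5 Mb it was 12.6% for LNCaP PRMT5. Wider distances and more genes count more peaks by construction, and the cause of the other moves was not tested. Limits on all of these are the single library per group, the unknown depth, the shared control of a line, the assembly's missing sequence at the ends and repeated sequence there.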
